A study of Mus musculus with 6 samples.

Results

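The genes described here are 10 that mark fat cells, followed in a shin muscle of male C57Bl/6 mice, the tibialis anterior, which is made mostly of fast fibres. They were taken by gene symbol from the platform annotation: Adipoq, Plin1, Cidec, Cidea, Lep, Retn, Cfd, Fabp4, Car3 and Pparg. For 9 of the 10, out of 22180 genes measured, a probe set naming that gene alone was found, and no probe set names Cfd (adipsin, complement factor D), which was not analysed here. Of the 9, 6 are largely restricted to fat (Adipoq, Plin1, Cidec, Cidea, Lep and Retn) and 3 are also made by myofibres or endothelium (Fabp4, Car3 and Pparg).

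RNA was hybridised to Affymetrix whole-transcript arrays, 1 array per sample. The castrated group holds 3 samples, from mice whose testes were removed at 11 weeks of age, with a feeding label of refed. The sham group holds 3 samples, from mice given a sham operation at the same age, with a feeding label of fasted. All mice were killed at 18 weeks, after 7 weeks of recovery, an overnight fast and a last 4 hours without food. The series design has some mice eat for 30 minutes before those hours, whereas the protocol on each sample has all mice do so. The feeding label follows the surgery in every sample, so their parts in any difference cannot be told apart. Array medians lay between 5.05 and 5.10 log2 units in castrated samples and at 5.04 in each sham sample. Genes of fast muscle were bright in all 6 samples, with Myh4, the fastest myosin heavy chain, at 13.54 to 13.62 in castrated and 13.52 to 13.56 in sham samples.

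White fat cells store triglyceride in a single large droplet and secrete hormones that report on energy stores. Their identity is set by the nuclear receptor PPARγ, which acts together with C/EBP factors on genes for droplet proteins, fatty acid handling and adipokines. Fat cells are sparse in healthy mouse limb muscle, where they lie between fibres and along vessels and can arise from fibro-adipogenic progenitors. Loss of androgen is known to favour fat storage in male rodents and men.

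Promoters of a regulator and of fat-restricted genes are shown, and these genes share a regulatory programme in fat cells. Of the 9 measured members 6 matched the RefSeq promoter table (build GRCm38.p6), with 9 start-site windows in all. Each sequence below is the 250 bases before the start, 5′ to 3′, and capitals mark the C/EBP-type letters TTGCNNAA found on either strand. The Pparg sequence is the most downstream of its 3 windows, chr6:115421816-115422065 on the plus strand. Plin1 lies at chr7:79732777-79733026 on the minus strand and Adipoq at chr16:23146286-23146535 on the plus strand.
Pparg: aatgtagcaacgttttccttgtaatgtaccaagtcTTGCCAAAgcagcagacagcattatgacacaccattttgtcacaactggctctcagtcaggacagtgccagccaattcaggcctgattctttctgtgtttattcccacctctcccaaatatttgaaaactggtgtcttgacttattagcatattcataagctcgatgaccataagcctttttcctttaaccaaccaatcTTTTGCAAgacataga
Plin1: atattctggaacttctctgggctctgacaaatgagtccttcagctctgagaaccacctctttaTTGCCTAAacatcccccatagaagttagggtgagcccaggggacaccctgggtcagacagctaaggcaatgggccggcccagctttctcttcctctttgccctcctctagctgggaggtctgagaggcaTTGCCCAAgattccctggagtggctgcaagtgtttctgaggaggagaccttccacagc
Adipoq: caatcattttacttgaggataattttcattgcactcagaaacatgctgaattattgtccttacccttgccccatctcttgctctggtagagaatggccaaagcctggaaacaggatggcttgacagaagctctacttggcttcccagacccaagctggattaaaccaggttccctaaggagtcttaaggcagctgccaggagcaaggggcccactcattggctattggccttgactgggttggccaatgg
The Pparg and Plin1 windows shown each held 2 C/EBP-type matches and that of Adipoq held 0. The Pparg windows not shown held 0. Over all 9 member windows 4 held a match, in Cidec, Lep, Plin1 and Pparg, whereas 9.56% of 32851 windows in the table did. The nuclear receptor half-site AGGTCA was in 2 member windows, both of Pparg, and in 14% of all windows. The direct repeat AGGTCANAGGTCA was in 0 member windows and in 0.0335% of all windows, and the steroid receptor half-site AGAACA was in 0 member windows and in 16.1% of all windows. TATAAA was in 1 member window, of Pparg, and in 12.4% of all windows. A longer C/EBP-type form, TTNNGNAAT, was in 2 member windows, of Cidec and Plin1, and in 10.2% of all windows. CCAAT was in 3 member windows, of Adipoq and Pparg, and in 33.8% of all windows, and the E box CANNTG in 7 and in 66.2%. These 8 motifs were all that were searched, on both strands, and AGGTCA is part of the direct repeat while both C/EBP-type forms can overlap. The motif put in capitals and the windows printed were chosen after the matches were seen, so the share of member windows with a C/EBP-type match is a description only. A match is a description of the letters and not evidence of a bound factor.

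Between castrated and sham muscle, Fabp4, Car3 and Pparg, the members also made outside fat, each had all 3 castrated samples above all 3 sham samples, by 1.16- to 1.32-fold on average. None of the 6 fat-restricted genes had groups that did not overlap. Across all genes the groups did not overlap for 12.8%, with castrated higher for 5.73% and lower for 7.02%, so that 0 of 6 is near the background. No member passed the test over all genes (limma, adjusted p under 0.05), which 0.0135% of all genes did. At an unadjusted p under 0.05 there were 4 of the 9 members, 3 higher in castrated samples and 1 lower, against 7.13% of all genes (3.62% higher and 3.51% lower). The median log2 difference, castrated minus sham, was 0.22 over the 9 members, 0.13 over the fat-restricted ones, 0.28 over the other 3 and −0.0056 over all genes. The members were chosen with earlier results of these data known, so their counts beside the shares of all genes are a description only. The contrast between these gene sets was not tested. In whole muscle, more cells of a type and more RNA per cell cannot be told apart.

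**Figure D1:**
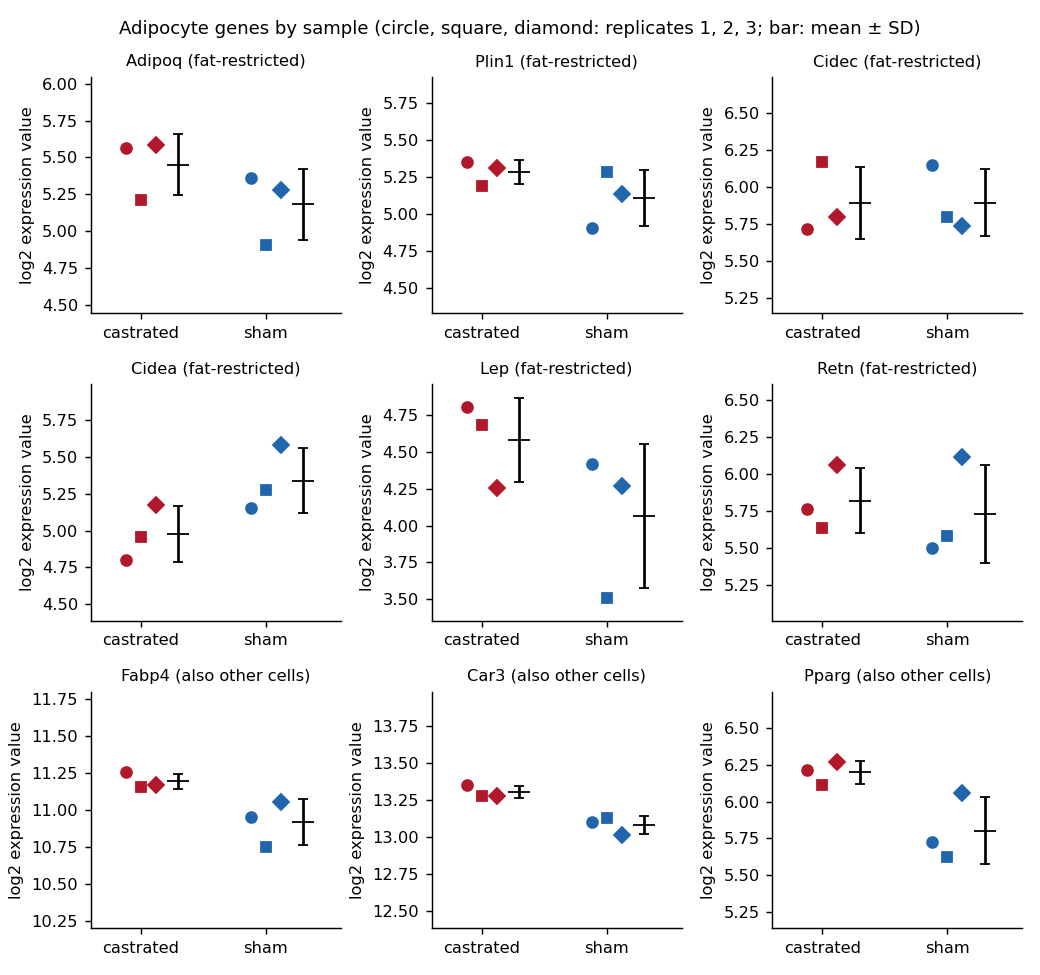
Log2 expression values (vertical axis) of the 9 measured genes in each castrated and sham sample, with circles, squares and diamonds for replicates 1, 2 and 3 and a bar for the mean ± SD (n = 3 each). Every panel spans the same number of log2 units, and only in the Fabp4, Car3 and Pparg panels do the castrated points lie wholly above the sham points.

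Pparg encodes the transcription factor that drives fat cell formation and is also made by endothelium and macrophages. Its log2 values were 6.22, 6.11 and 6.26 in castrated samples 1, 2 and 3, against 5.73, 5.62 and 6.06 in sham samples 1, 2 and 3. All castrated values lay above all sham values, and sham sample 3 came within a small step of the lowest castrated one. Pparg averaged 6.20 ± 0.078 in castrated and 5.80 ± 0.23 in sham samples (SD, n = 3 each), a log2 difference of 0.40 (standard error 0.13, unadjusted 95% interval 0.10 to 0.69, as for the intervals of the other genes). That is 1.32-fold and did not pass over all genes (limma adjusted p = 0.658). The single Pparg probe set does not separate the transcript made in many cell types from the one largely confined to fat.

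Fabp4 encodes a fatty acid carrier of the cytosol that is abundant in fat cells, capillary endothelium and macrophages. It stood at 11.25, 11.16 and 11.17 in castrated samples, against 10.95, 10.75 and 11.05 in sham samples. The castrated values were close together and above every sham value. The means were 11.19 ± 0.053 in castrated and 10.92 ± 0.16 in sham samples (SD, n = 3 each), with a log2 difference of 0.28 (standard error 0.11, 95% interval 0.028 to 0.52) or 1.21-fold (limma adjusted p = 0.685).

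Car3 encodes carbonic anhydrase III, a cytosolic enzyme abundant in fat cells and in slow myofibres. It stood at 13.35, 13.28 and 13.28 in castrated samples, against 13.10, 13.13 and 13.01 in sham samples. The groups did not overlap and each was tight. The means were 13.30 ± 0.043 in castrated and 13.08 ± 0.061 in sham samples (SD, n = 3 each), with a log2 difference of 0.22 (standard error 0.093, 95% interval 0.0083 to 0.43) or 1.16-fold (limma adjusted p = 0.696). A second, dimmer Car3 probe set read 10.63, 10.50 and 10.43 in castrated samples, against 10.21, 10.27 and 10.19 in sham samples. Its groups did not overlap either, with a log2 difference of 0.30 (standard error 0.099, limma adjusted p = 0.667). The Car3 difference was therefore seen in both of its probe sets, which measure the same 6 RNA samples.

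Among the hormones that fat cells secrete, Adipoq encodes adiponectin, which raises insulin sensitivity. Its log2 values were 5.56, 5.21 and 5.58 in castrated samples, against 5.36, 4.91 and 5.28 in sham samples. Castrated sample 2 lay below sham samples 1 and 3, so the groups overlapped. Adipoq averaged 5.45 ± 0.21 in castrated and 5.18 ± 0.24 in sham samples (SD, n = 3 each), a log2 difference of 0.27 (standard error 0.15, 95% interval −0.076 to 0.62, limma adjusted p = 0.764). This is close to the Fabp4 difference, with more spread between samples.

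Lep encodes leptin, the satiety hormone released in proportion to fat stores. It stood at 4.80, 4.68 and 4.26 in castrated samples, against 4.42, 3.51 and 4.27 in sham samples. Castrated sample 3 was level with sham sample 3 and below sham sample 1, and sham sample 2 was far below the rest. The log2 difference of 0.51 was the largest of the members and the least precise (standard error 0.24, 95% interval −0.020 to 1.05, limma adjusted p = 0.713). Without sham sample 2 it was 0.24.

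Retn encodes resistin, which fat cells secrete in mice. It stood at 5.76, 5.64 and 6.06 in castrated samples, against 5.50, 5.58 and 6.11 in sham samples. Replicate 3 was the highest of its group in both groups, and the groups overlapped throughout. The log2 difference was 0.087 (standard error 0.18, 95% interval −0.32 to 0.49, limma adjusted p = 0.942).

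The droplet proteins did not share a direction. Plin1 encodes perilipin 1, which coats the fat cell's droplet and gates lipolysis. It stood at 5.35, 5.19 and 5.32 in castrated samples, against 4.90, 5.28 and 5.14 in sham samples. Sham sample 2 lay above castrated sample 2, so the groups overlapped. The log2 difference was 0.18 (standard error 0.12, 95% interval −0.094 to 0.45, limma adjusted p = 0.795).

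Cidec, which fuses droplets into the single large droplet of white fat, stood at 5.71, 6.17 and 5.79 in castrated samples, against 6.15, 5.79 and 5.73 in sham samples. A single sample of each group, castrated 2 and sham 1, stood above the others. The means were 5.89 ± 0.24 in castrated and 5.89 ± 0.23 in sham samples (SD, n = 3 each), and the 95% interval of the log2 difference ran from −0.35 to 0.35 (limma adjusted p = 1.00). The interval includes differences of up to that size in either direction.

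Cidea, a droplet protein known from brown fat, was the member with the lowest difference, below 0. It stood at 4.80, 4.96 and 5.17 in castrated samples, against 5.15, 5.28 and 5.58 in sham samples. Castrated sample 3 lay just above sham sample 1, so the groups overlapped. Cidea averaged 4.98 ± 0.19 in castrated and 5.34 ± 0.22 in sham samples (SD, n = 3 each), a log2 difference of −0.36 (standard error 0.14, 95% interval −0.68 to −0.036), or 1.28-fold lower in castrated samples (limma adjusted p = 0.685).

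**Figure D2:**
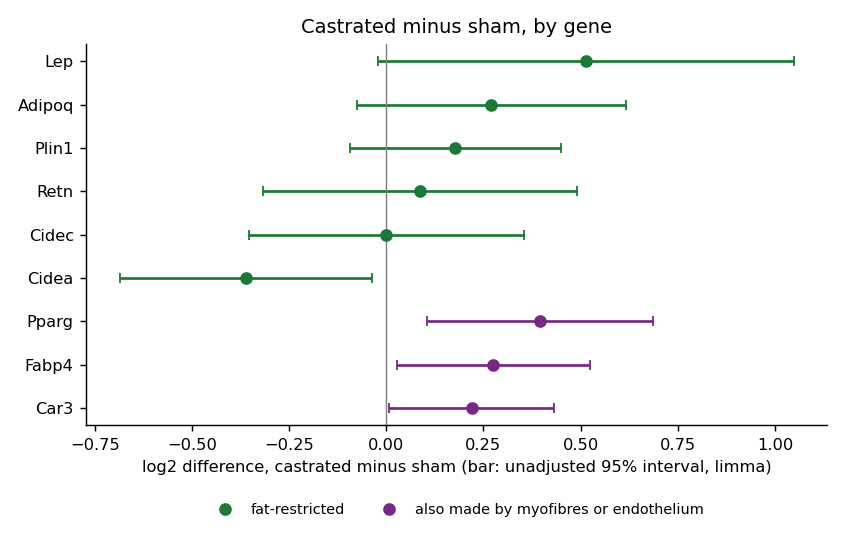
Log2 difference, castrated minus sham, for each gene (point) with its unadjusted 95% interval from limma (bar), fat-restricted genes above and genes also made elsewhere below. The intervals of Pparg, Fabp4 and Car3 lie above 0 and that of Cidea below 0, while the other 5 include 0, and no gene passed after adjustment over all genes.

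The members' levels were set beside genes that muscle is not known to use. As a guide, 1105 olfactory receptor genes had mean log2 values with a median of 2.81, a 95th percentile of 4.97 and a highest value of 6.86. Probes differ in affinity, so this is a coarse guide and no test of presence. Lep lay above 86.6% of these receptors, Cidea above 96.1%, Plin1 above 96.7%, Adipoq above 96.9%, and Cidec and Retn above 98.8%. Pparg lay above 99.2% of them, and Fabp4 and Car3 above all 1105. Only Lep lay below the 95th percentile, and the highest olfactory receptor mean exceeded the means of Pparg and of every fat-restricted member. Whether low signal bears on the overlap of the groups was not tested.

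The order of the samples varied from gene to gene. Sham sample 2 was the lowest of all 6 samples for 4 of the 9 members, Adipoq, Lep, Fabp4 and Pparg. Castrated sample 1 was the lowest for 2, Cidec and Cidea, and the highest for 4, Plin1, Lep, Fabp4 and Car3. After subtracting each gene's mean over the 6 arrays, the fat-restricted median was 0.069, −0.055 and 0.067 in castrated samples and 0.021, −0.15 and −0.047 in sham samples. These groups overlap, since castrated sample 2 lies below sham samples 1 and 3. The same measure for Fabp4, Car3 and Pparg was 0.20, 0.10 and 0.11 in castrated samples and −0.10, −0.31 and −0.0022 in sham samples, without overlap.

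Single samples moved several of the differences. Without sham sample 2 the differences were 0.13 for Adipoq, 0.24 for Lep, 0.19 for Fabp4 and 0.31 for Pparg, and the fat-restricted median was 0.072. Without sham sample 3 that median was 0.23. Plin1 was 0.076 without sham sample 1 and 0.27 without sham sample 2. Retn ran from −0.035 without castrated sample 3 to 0.28 without sham sample 3, and Cidea was −0.24 without sham sample 3 and −0.46 without castrated sample 3.

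**Figure D3:**
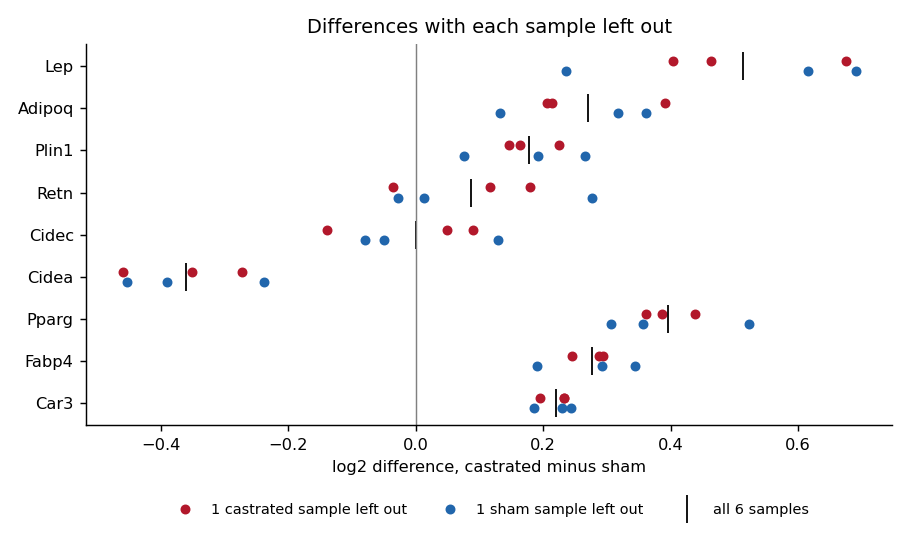
Log2 difference, castrated minus sham, of each gene with all 6 samples (black bar) and with 1 castrated (red) or 1 sham (blue) sample left out. Pparg, Fabp4 and Car3 stay between 0.19 and 0.52, Lep runs from 0.24 to 0.69, and Retn and Cidec have points on both sides of 0.

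Markers of the other cells that make Fabp4 and Pparg were compared over the same samples. Of 16 endothelial genes 9 were higher and 7 lower in castrated samples, with a median log2 difference of 0.017, and 0 passed in either direction (limma, smallest adjusted p = 0.486). At an unadjusted p under 0.05 there were 2 higher and 1 lower. The median ran from 0.0018 to 0.030 with a sample left out. Pecam1, an endothelial adhesion molecule, differed by 0.045 and Cdh5, the endothelial cadherin, by 0.0055. Cldn5, a tight junction protein, differed by −0.65 and Cd300lg, a capillary surface receptor, by 0.29, and for both the groups did not overlap. Emcn had the highest difference of the list, 0.34, also without overlap. Of the 16 genes 2 did not overlap with castrated higher and 2 with castrated lower, against 5.73% and 7.02% of all genes. In a comparison added after the values were seen, the marker median of the same array, each gene centred on its own mean, was subtracted from the centred value of a member. Set against the endothelial median in this way, Fabp4 was 0.18, 0.13 and 0.10 in castrated samples, against −0.059, −0.31 and −0.056 in sham samples. Pparg on that scale was 0.19, 0.14 and 0.25 in castrated samples, against −0.23, −0.38 and 0.0041 in sham samples. The endothelial median itself ran only from −0.030 to 0.022 in castrated and from −0.045 to 0.054 in sham samples, over genes that differed by −0.65 to 0.34. A median this flat can change little on subtraction, and the differences were 0.28 for Fabp4 and 0.40 for Pparg. The part of endothelium in either difference was not tested.

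Macrophage markers had lower means in castrated samples in most cases. Of 12 macrophage genes 2 were higher and 10 lower in castrated samples, with a median log2 difference of −0.081 and 0 past the test in either direction (limma, 0 higher and 1 lower at an unadjusted p under 0.05). Lyz2, the macrophage lysozyme, differed by −0.57 (limma adjusted p = 0.668) and Adgre1, a macrophage surface receptor, by −0.074. Fcgr1, a receptor for antibodies, differed by 0.19 and was 1 of the 2 higher. Without sham sample 1, 8 were higher and 4 lower, with a median of 0.045. The macrophage median, each gene centred on its own mean, ran from −0.17 to 0.14 in castrated and from −0.072 to 0.30 in sham samples. Set against it on each array, Fabp4 kept groups that did not overlap (0.063 to 0.28 in castrated and −0.40 to 0.040 in sham samples). Pparg did not, at 0.080 to 0.43 in castrated and −0.57 to 0.10 in sham samples. The part of macrophages in either difference was not tested.

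Car3 was set beside fibre-type genes because slow fibres make it. Of 10 slow-fibre genes 8 were higher and 2 lower in castrated samples, with a median log2 difference of 0.31, and 0 passed (limma, 1 higher at an unadjusted p under 0.05). Castrated sample 1 stood apart: its slow-fibre median, each gene centred over the arrays, was 0.74, against −0.23 and −0.21 in the other castrated samples and −0.28 to −0.041 in sham samples. Without that sample 3 slow-fibre genes were higher and 7 lower, with a median difference of −0.078. Myh7, the slow myosin, stood at 7.41 in that sample and at 5.11 to 5.40 in the other 5. Tnnt1, the slow troponin T, differed by 0.43, and by 0.10 without that sample. Casq2, a calcium-binding protein of the slow-fibre list, stood at 8.62, 8.48 and 8.32 in castrated samples, against 7.80, 7.93 and 8.47 in sham samples. Its groups overlapped, and its difference of 0.40 (limma adjusted p = 0.696) was 0.33 without castrated sample 1. Car3 was highest in that sample too, and without it the Car3 difference was 0.20, against 0.22 with all samples. Set against the slow-fibre median of the same array, Car3 was −0.58, 0.31 and 0.30 in castrated samples, against 0.013, 0.22 and −0.14 in sham samples, and the groups overlapped. Of 12 fast muscle genes 5 were higher and 7 lower, with a median of −0.022 and 0 past the test (limma, 0 at an unadjusted p under 0.05). That median ran from −0.060 to 0.011 with a sample left out. Myh1, a fast myosin, and Tnni2, the fast troponin I, each differed by −0.17, and the groups of both did not overlap. In this list that held for 0 of 12 genes with castrated higher and 2 with castrated lower, against 5.73% and 7.02% of all genes. Set against the median of the fast muscle genes Car3 was 0.19, 0.057 and 0.12 in castrated samples, against −0.16, −0.066 and −0.13 in sham samples, and the groups did not overlap. The centred fast muscle median itself ran only from −0.039 to 0.029 in castrated and from −0.052 to 0.067 in sham samples. A median this flat can change little on subtraction, and the Car3 difference was 0.24. The part of slow or fast fibres in the Car3 difference was not tested.

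**Figure D4:**
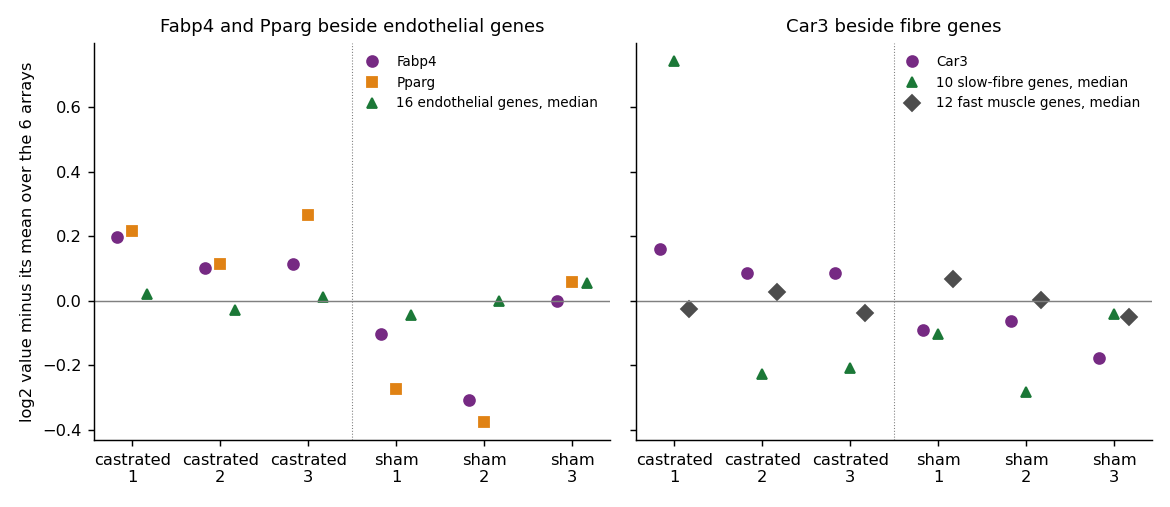
Log2 value minus its mean over the 6 arrays (vertical axis) for each castrated and sham sample, with Fabp4, Pparg and the median of 16 endothelial genes on the left and Car3 with slow-fibre and fast muscle medians on the right. Fabp4 and Pparg separate by group. The endothelial median stays between −0.045 and 0.054, over genes that differ by −0.65 to 0.34. The slow-fibre median is high in castrated sample 1 alone.

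Other genes enriched in fat gave values on both sides of 0. Of 21 measured, 15 were higher and 6 lower in castrated samples, with a median log2 difference of 0.085, and 0 passed in either direction (limma, smallest adjusted p = 0.521). With a sample left out this median ran from 0.025 without sham sample 2 to 0.12 without castrated sample 2. At an unadjusted p under 0.05 there were 3 higher and 1 lower. Of the 21 genes, 6 lay below the 95th percentile of the olfactory receptors. Mest, an imprinted gene tied to fat cell enlargement, stood at 6.49, 6.58 and 6.60 in castrated samples, against 6.19, 6.25 and 6.14 in sham samples. Npr3, the natriuretic peptide clearance receptor, stood at 6.57, 6.49 and 6.71 in castrated samples, against 7.00, 6.89 and 7.25 in sham samples. Neither gene's groups overlapped, and they lay on opposite sides, at 0.36 and −0.46. In the whole list the groups did not overlap for 4 of 21 genes with castrated higher and 1 with castrated lower. The shares of all genes were 5.73% and 7.02%. Like the members, the list was chosen with earlier results of these data known.

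Brown fat and thermogenic genes numbered 12 measured, of which 7 were higher and 5 lower (median log2 difference 0.053, 0 passed with limma, 3 higher and 0 lower at an unadjusted p under 0.05). Of these 12 genes, 8 lay below the 95th percentile of the olfactory receptors, so much of this list is dim. Ucp1, the uncoupling protein that defines brown fat, stood at 4.79, 4.44 and 4.72 in castrated samples, against 4.44, 4.80 and 4.57 in sham samples, above 91.1% of olfactory receptors. Its groups overlapped, with a log2 difference of 0.045. With a sample left out the list median ran from 0.015 without sham sample 3 to 0.13 without sham sample 2, and the split was 10 higher and 2 lower without sham sample 1. Ppargc1a, a coactivator used by brown fat and by muscle itself, stood at 9.41, 10.53 and 10.16 in castrated samples, against 8.84, 9.03 and 8.97 in sham samples. Its difference of 1.09 (standard error 0.24, limma adjusted p = 0.446) stands in the opposite direction to that of Cidea. Lhx8, a transcription factor used as a brown fat marker, differed by 0.30 and lay above 73.7% of olfactory receptors. Cox8b of the same list differed by −0.24, and its groups did not overlap. Over the 12 genes that held for 3 with castrated higher and 1 with castrated lower, against 5.73% and 7.02% of all genes.

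Factors that work with or before PPARγ in fat cell formation lay on both sides of 0. Of 18 adipogenic transcription factors 9 were higher and 9 lower in castrated samples, with a median log2 difference of −0.013 and 0 past the test in either direction (limma, 2 higher and 0 lower at an unadjusted p under 0.05). Without castrated sample 3 the split was 6 higher and 12 lower, with a median of −0.058. Cebpa, the partner of PPARγ in mature fat cells, stood at 5.44, 5.56 and 5.46 in castrated samples, against 5.43, 5.37 and 5.22 in sham samples. The highest sham value nearly met the lowest castrated one, and the difference was 0.14. Ebf1, an early B-cell factor also used in fat cells, differed by 0.28 and Prdm16, a brown fat regulator counted in the thermogenic list too, by 0.24. A second, dimmer Prdm16 probe set differed by −0.0031 (limma adjusted p = 0.998). On the other side, Srebf1 differed by −0.21 and Klf5 by −0.14, and the groups of both did not overlap. Over the 18 factors that held for 3 with castrated higher and 2 with castrated lower, against 5.73% and 7.02% of all genes. Of 7 inhibitors of fat cell formation 5 were higher and 2 lower (median 0.079, 0 passed with limma, 0 at an unadjusted p under 0.05), led by Klf2 at 0.33 and Gata2 at 0.13. With a sample left out that median ran from 0.016 to 0.11. Of 10 measured genes of fibro-adipogenic progenitors 3 were higher and 7 lower (median −0.031, 0 passed with limma, 0 higher and 1 lower at an unadjusted p under 0.05). Without sham sample 1 the split was 7 higher and 3 lower (median 0.059), and without castrated sample 3 it was 6 and 4 (median 0.021). Pdgfra, their defining receptor, differed by −0.22, Col15a1, a basement membrane collagen, by 0.34 and Pi16, a marker of a progenitor subset, by −0.49.

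Genes of triglyceride storage and breakdown, most of which muscle fibres use themselves, lay on both sides of 0. Of 23 measured 11 were higher and 12 lower in castrated samples, with a median log2 difference of −0.013 and 0 past the test (limma, 0 higher and 1 lower at an unadjusted p under 0.05). With a sample left out that median ran from −0.038 to 0.0021. The droplet coat protein Plin3 stood at 7.23, 7.00 and 7.19 in castrated samples, against 7.48, 7.76 and 7.79 in sham samples, a difference of −0.54 (standard error 0.12, limma adjusted p = 0.449). Its groups did not overlap, on the side opposite to Plin1. In this list that held for 0 of 23 genes with castrated higher and 2 with castrated lower, against 5.73% and 7.02% of all genes. Lpl, which releases fatty acids from blood lipoproteins and is a target of PPARγ, differed by 0.19, and its sham samples spread from 10.19 to 11.03. Without sham sample 1 the Lpl difference was −0.016. Mgll, which completes lipolysis, differed by 0.22.

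Relatives of Fabp4 and Car3 and the receptors for fat cell hormones gave values on both sides of 0. Fabp3, the fatty acid carrier of muscle, differed by 0.12, with 8.66 to 8.75 in castrated and 8.49 to 8.72 in sham samples, and its groups overlapped. A second, dimmer Fabp3 probe set differed by −0.073. Fabp1 and Fabp7, the liver and brain forms, differed by −0.31 and 0.28 and lay above 71% and 81.4% of olfactory receptors. By the brightest probe set of each, 0 of 5 relatives passed (limma, 0 at an unadjusted p under 0.05). Fabp5 differed by 0.19 in that probe set, and its groups overlapped. Dimmer Fabp5 probe sets differed by 0.33 and 0.35 without overlap (limma unadjusted p = 0.019 each, adjusted p = 0.667) and by 0.19 with overlap. Car2, a widespread carbonic anhydrase, differed by 0.29 and Car4, a membrane-bound form on capillaries, by −0.17, and of 5 measured 0 passed (limma, 0 at an unadjusted p under 0.05). Adipor1, the muscle receptor for adiponectin, differed by 0.0031 (95% interval −0.21 to 0.21), the closest to 0 of the 5 receptors. Cdh13, which binds adiponectin at the cell surface, differed by 0.17 and C3ar1, the receptor for a complement fragment, by −0.14, and 0 of the 5 passed (limma, 0 at an unadjusted p under 0.05).

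**Figure D5:**
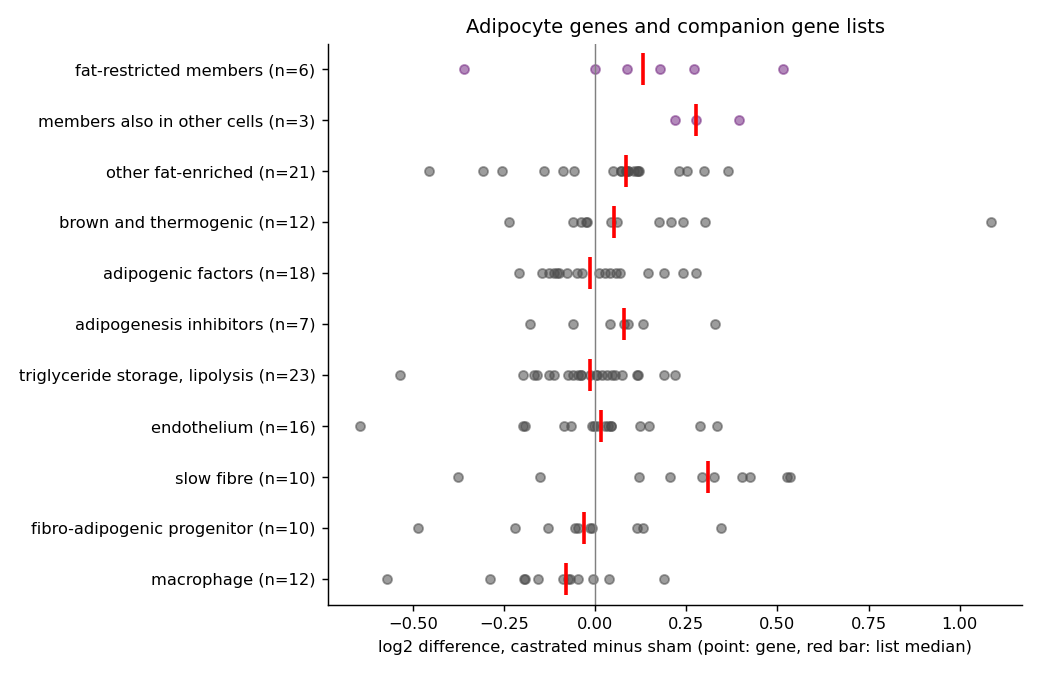
Log2 difference, castrated minus sham, of each measured gene (points) in the fat-related lists and in the lists for other cells, with the list median as a red bar. Medians are 0.13 for the fat-restricted and 0.28 for the other adipocyte members, between −0.081 and 0.085 for 8 lists, and 0.31 for slow-fibre genes.

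Mural cell genes had a median log2 difference of 0.055 over 7 genes, with Rgs5 at 0.15 and Pdgfrb at 0.11, and Schwann cell genes one of 0.0014 over 3, with Pmp22 at 0.091 and Mbp at −0.048. In both lists 0 genes passed (limma, 0 at an unadjusted p under 0.05). With a sample left out these medians ran from −0.012 to 0.068 for mural and from −0.069 to 0.11 for Schwann cell genes.

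Genes with a profile like that of the fat-restricted members were looked for over the 6 samples. Likeness was Pearson's r with the mean centred profile of those 6 members over 6 arrays, a description over 4697 named genes whose values spanned at least 0.5 log2 units. The leading genes were Il18rap (r = 0.989), Ube2v2 (r = 0.980), Csnka2ip (r = 0.979), Svs1 (r = 0.975) and Toporsl (r = 0.972). The mean centred profile itself was −0.22 in sham sample 2 and between −0.029 and 0.087 in the other samples. All 5 leading genes were lowest in sham sample 2, as Adipoq and Lep were. Ube2v2 lay above 98.7% of olfactory receptors, Il18rap above 82.7%, Csnka2ip above 69.1%, Svs1 above 65% and Toporsl above 22.7%. The r values are the highest of 4697, describe only 6 arrays and were not tested.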

How the data were processed

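The table deposited by the authors gives a normalized log2 value for each probe set on each array. Per the submitters' processing notes Partek was used, with no version stated. How background, summarization and normalization were handled, and which genome build, is not given in the sources used here. The number of arrays limits the precision, and normalization that makes arrays alike can compress small differences.

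Of 41345 probe sets 23521 name 1 gene. Symbols were updated through Entrez identifiers (23328 matched, GRCm38.p6 gene table), and each gene took its brightest probe set by mean over the arrays. Groups came from the titles. Castrated was compared with sham by limma 3.58.1 (R 4.3.3) across all 22180 genes, without covariates, with Benjamini-Hochberg adjustment and a threshold of 0.05. The labels name a mouse per sample but state no separate animals, so p-values measure the spread between samples, which may be technical. On simulated data with 200 changed genes among 22180, the procedure recovered 16% of changes of 0.5 log2 units and 94% of changes of 1. Differences as small as most members' would therefore often not pass. These shares apply to that number of changed genes, with changes of 0.5 to 2 log2 units. In the measured data 3 genes passed, and Ppargc1a, with a log2 difference of 1.09, had a limma adjusted p of 0.446. Recovery with fewer changed genes was not tested.

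The members and gene lists were chosen with earlier results of these data known. All members were named, with the 2 smallest p-values of each companion list, a set of defining genes, of which 1 is not reported here, and the 5 genes most alike in profile. List medians and companion genes with a sample left out, member values set against marker medians, and the choice of motif and promoter windows shown came after seeing the data. Fabp5, Srebf1, Klf5, Cox8b and Emcn were also named after seeing the data. The name filter behind the likeness ranking, which drops unnamed and receptor gene models, was corrected after its first output was seen. Alternatives are given in the closing section.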

Additional observations from a re-analysis of the deposited data

How the results depend on the processing

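No member passed over all genes under any of 13 alternatives (quantile normalization, centring on array medians, leaving out genes under the 25th percentile, the mean of a gene's probe sets, the replicate block, a trended robust prior, array weights, and each sample left out). Over all genes the replicate numbers showed little pairing of the samples (correlations of deviations 0.033 to 0.076). With the replicate block 2 genes of all passed, against 3 without it. The members' differences (Fabp4 0.28) cannot move under the block in this balanced design. Standard errors fell most under the block for Adipoq (0.15 to 0.095), Cidea (0.14 to 0.094) and Retn (0.18 to 0.11). They rose for Plin1, Cidec and Car3. The count over all genes was 9 without dim genes, 10 with the trended robust prior, and 3 to 4 with a sample left out. The 9-member median ran from 0.19 to 0.28 with a sample left out, and the median of Fabp4, Car3 and Pparg from 0.24 to 0.34. The fat-restricted median ran from 0.072 without sham sample 2 to 0.23 without sham sample 3. Centring on array medians, which were higher in castrated samples, gave 0.18 for the 9 members and 0.095 for the fat-restricted ones. For Fabp4, Car3 and Pparg it gave 0.24. Signs turned only for Cidec (leave-one-out range −0.14 to 0.13, positive at 0.089 and 0.050 on dropping castrated samples 1 and 3) and Retn (−0.035 on dropping castrated sample 3, −0.028 on dropping sham sample 1, up to 0.28). The cause was not tested.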
